A study of Mus musculus with 8 samples.

Results

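The comparison of acetylated low-density lipoprotein (acLDL) with no treatment in wild type cells covers 11262 of the 24613 probes on the array, measured on 4 of the 8 arrays of the series. A probe was taken where its signal lay above noise on at least 2 of these 4 arrays. The noise limit was 36.7 intensity units, and the second highest wild type signal was 36.7 for the dimmest probe taken and 36.6 for the brightest one left out. Of the probes taken, 9913 carry a gene symbol, for 8437 genes, and 1349 have no gene name here. Both groups were labelled as bone marrow derived macrophages of female 129/BL6 wild type mice, grown from flushed marrow for 5 days in medium conditioned by L929 cells, a source of macrophage growth factor. One group of 2 arrays was untreated, and the other group of 2 received 100 ug/ml acLDL for 24 hours. The other 4 arrays came from mice with a kinase-inactive knock-in of IRAK4 (IRAK4 KI), 2 untreated and 2 with acLDL, and served for the shared spread and for the difference of effects. Whether the pair of samples in a group had separate sources (cultures, animals) is not stated, so the p-values cover no more than differences among the arrays in hand, which can be technical in origin. Precision is limited by how few arrays there are, and the labels give neither the age of the mice nor any pooling.

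Macrophages take up acLDL through scavenger receptors and store its cholesterol in lipid droplets. Cholesterol loading of macrophages is known to raise targets of the sterol-sensing nuclear receptor LXR, such as the exporters Abca1 and Abcg1, and to lower the genes of sterol synthesis. The heat shock response is a separate program in which the factor HSF1 raises chaperones and co-chaperones that refold or clear damaged proteins.

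The labelled cell type was set against its defining markers, and the data went against it, so the words wild type, KI, untreated and acLDL are used here as array labels only. Over the 4 wild type arrays Sftpc, a surfactant protein of alveolar type II cells, had a mean log2 intensity of 15.19, Scgb1a1 of airway club cells 14.97, Ager of alveolar type I cells 14.53 and Cldn5 of endothelium 14.13. Hopx, which also marks alveolar type I cells, was above noise on 0 of the 4 wild type arrays, and Aqp5 has no probe in the annotation used. Adgre1, Lyz2, Mertk and Spi1 of macrophages lay above noise on all 4 arrays, at means of 8.93, 14.27, 9.27 and 6.82. Itgam and Fcgr1, which also mark macrophages, were above noise on 0 of the 4 wild type arrays, and Csf1r, Cd68 and Irak4 itself have no probe in the annotation used. The genotype label was therefore not checked.

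The arrays of a group were not equally alike. Across the probes tested the 2 untreated arrays correlated at 0.988 and the 2 acLDL arrays at 0.982, where genes are not independent replicates. The first acLDL array was closest to the second untreated array (0.985) and the second acLDL array to an untreated KI array (0.985). The 2 acLDL arrays lay over 2 log2 units apart on 36 probes, against 14 for the untreated pair. On 16 of the 36 the second acLDL array was lower. Many of these genes, which were picked once their values were known, encode mucous or airway secretory products, such as Clca1, Muc5b, Tff2 and Retnla. Clca1, a secreted protein of mucous cells, was at 14.15 and 14.28 untreated, and at 14.08 and 5.47 with acLDL. On the other 20 the second acLDL array was higher, and many belong to heart muscle or fat, such as Myl7, Actc1, Ucp1 and Adipoq. Myl7, an atrial myosin light chain, was at 9.23 and 8.41 untreated, and at 8.76 and 11.22 with acLDL. On 16 of the 36 probes the 2 acLDL arrays of the KI mice differed the same way by over 1 log2 unit. These were the 16 on which the second wild type acLDL array was lower, such as Clca1, at 14.01 and 5.60 in KI. None of the 20 on which it was higher was among them, and Myl7 was at 11.15 and 10.57 in KI. The plot of the genes that separate the acLDL arrays shows all 30 with a name.

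**Figure D1:**
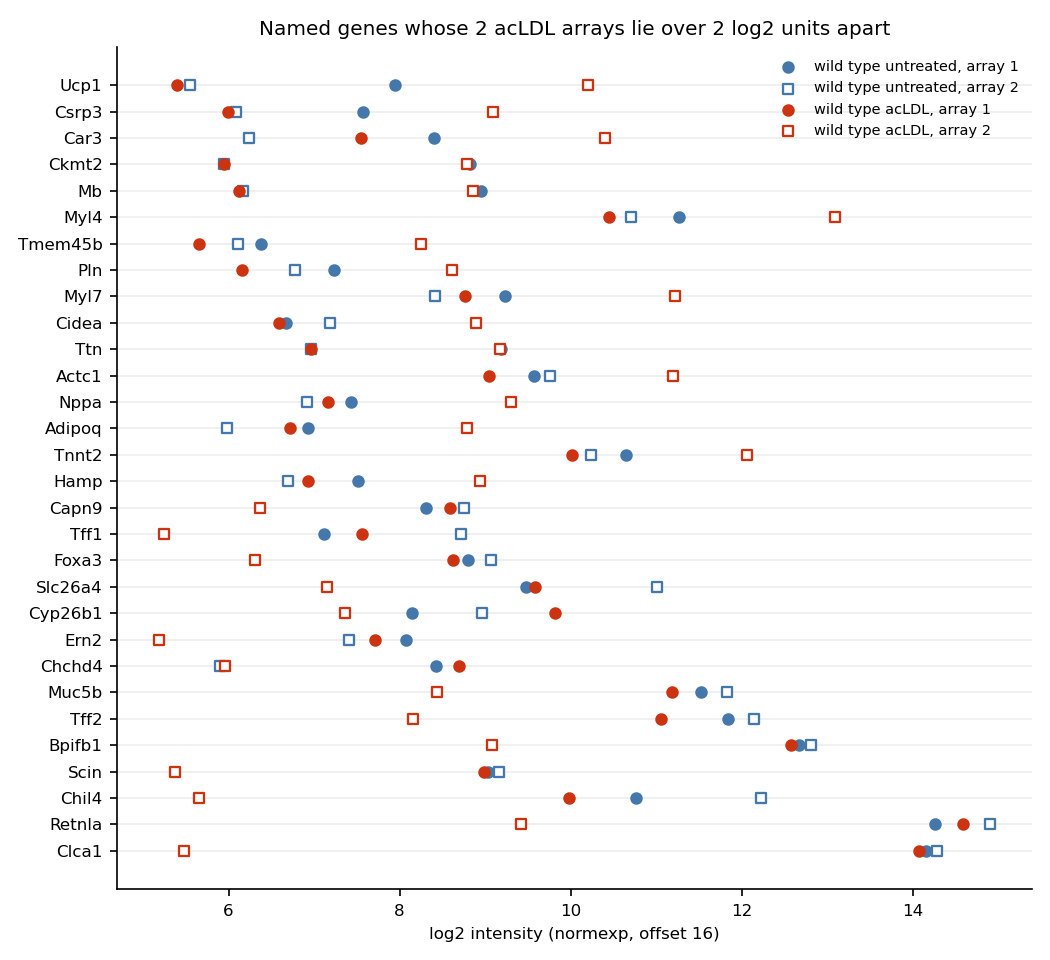
Log2 intensity (horizontal axis) of the 30 named genes whose 2 wild type acLDL arrays differed by over 2 log2 units, 1 point per wild type array and no error bars. The second acLDL array (open red squares) stands alone to the left for Clca1, Scin, Bpifb1 and Muc5b, and alone to the right for Myl4, Myl7 and Actc1, while the untreated arrays and the first acLDL array lie closer together.

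Of the 11262 probes, 22 (0.195%) passed the test at an adjusted p of 0.05, 15 of them higher with acLDL (0.133%) and 7 lower (0.0622%). The 15 higher probes name 15 genes, led by Baiap2l1 and by 6 genes of the heat shock list, and the 7 lower probes name S100a8, Ifi47 and Il4i1 beside 4 probes with no gene name here. The 2 acLDL arrays both lay above the 2 untreated ones for 21.7% of all probes and below them for 20%. At an unadjusted p under 0.05 there were 665 higher probes (5.9%) and 683 lower ones (6.06%). The median log2 change of all probes was 0.01, and the middle 50% of probes lay between -0.12 and 0.13. A log2 change over 1 in size was measured for 89 probes, 38 higher and 51 lower. Of the 38 higher probes, 11 were called, 7 had acLDL arrays over 1 log2 unit apart and 3 had untreated arrays that far apart. The largest rise, that of Txnl1, was not called (limma adjusted p = 0.185). Txnl1 was at 4.99 and 5.33 untreated, both within noise, and at 8.06 and 7.94 with acLDL, so at least 3.16-fold higher. Its KI acLDL arrays, which enter the shared spread, were at 7.852 and 5.185. Of the 51 lower probes, 5 were called, while 20 had acLDL arrays over 1 log2 unit apart, with the second array the lower one each time. The untreated arrays were over 1 log2 unit apart for 17 of the 51. The plot of change against level shows these probes.

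**Figure D2:**
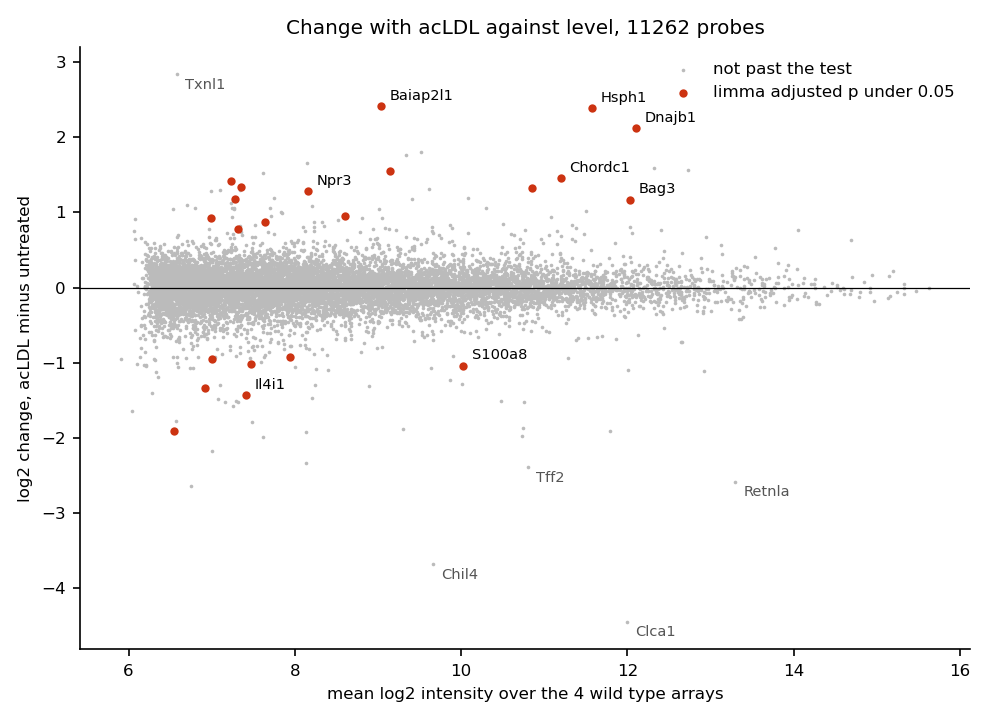
Log2 change with acLDL (vertical axis) against the mean log2 intensity over the 4 wild type arrays (horizontal axis) for 11262 probes, with the 22 past the limma test in red. Baiap2l1, Hsph1 and Dnajb1 are the highest red points, and low points such as Clca1 and Chil4 are grey, with acLDL arrays far apart.

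How many probes passed depended on single arrays. Without untreated arrays 1 and 2 the count of 22 became 5 and 1, and without either acLDL array it became 4. With 1 untreated KI array removed it was 36, and with 1 acLDL KI array removed it was 10, the same for both arrays of a pair because the remaining pairs set the spread. Baiap2l1 passed in each of these fits. Hsph1 and Ahsa2 passed in all but the one without untreated array 2, where their adjusted p by limma was 0.071 and 0.0877. Without the second acLDL array, which stood apart, Baiap2l1, Hsph1, Ahsa2 and Chordc1 passed.

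Baiap2l1 gave the smallest p of the comparison. It encodes an adaptor that couples curved plasma membrane to actin. Its log2 intensity was 7.73 and 7.93 on the untreated arrays and 10.22 and 10.26 on the acLDL arrays. The acLDL arrays lay close together and well above both untreated arrays, a 5.33-fold rise (log2 change 2.41, SE 0.12, limma adjusted p = 0.000221). In KI it was at 8.28 and 8.33 untreated and at 8.20 and 8.05 with acLDL, so the KI acLDL arrays lay below their untreated arrays. The acLDL effect in KI minus that in wild type was -2.59 (SE 0.16, limma adjusted p = 0.00204). This difference of effects passed for 3 probes of 11262 (0.0266%), those of Baiap2l1, S100a8 and Col3a1. The other 13 tested members of the list of I-BAR and actin membrane adaptors did not pass. Among all named genes 0.178% passed as higher and 0.0356% as lower. Eps8, an actin capping and bundling protein, came next, at 7.21 and 7.51 untreated and 7.68 and 7.91 with acLDL (limma adjusted p = 0.281). The list of 14 had a median of 0.08, with 4 members higher on both acLDL arrays and 0 lower on both, where 22% and 19.7% of all named genes were.

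The heat shock list held 6 of the 15 rises. Of its 39 genes, 33 have a probe and 30 were tested, each by its brightest probe. Of these 30, 26 were higher and 4 lower with acLDL at a median of 0.41, against a median of 0.01 for all 8437 named genes. The acLDL arrays both lay above the untreated ones for 18 of the 30 and below for 2, where 22% and 19.7% of all named genes did so. Past the test were 6 higher members and 0 lower ones, against 0.178% and 0.0356% of named genes. The median stayed between 0.35 and 0.48 when any 1 wild type array was left out. In KI, 25 of the 30 were higher with acLDL, at a median of 0.20, where 3997 of the 8437 named genes were higher at a median of -0.01. Summed over the tested members in wild type, intensity was 50514 and 48880 untreated and 84999 and 75938 with acLDL, so the acLDL arrays were both higher. The KI sums were 56686 and 68130 untreated, both above the untreated wild type sums, and 72505 and 74243 with acLDL. Hspa1a, Hspa1b, Hspa8 and Hsf1 have no probe in the annotation used, and neither probe of Hsp90aa1 was above noise on any wild type array.

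The large chaperone of the list was Hsph1, an HSP110 protein that exchanges nucleotide on HSP70. It measured 10.44 and 10.32 untreated and 12.96 and 12.58 with acLDL. The groups were over 2 log2 units apart at their nearest arrays, a 5.24-fold rise (log2 change 2.39, SE 0.17, limma adjusted p = 0.0025). In KI it was at 11.56 and 11.96 untreated and at 12.22 and 12.16 with acLDL, and the difference of effects did not pass (-1.96, SE 0.24, limma adjusted p = 0.0865).

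Co-chaperones that stimulate or link the HSP70 and HSP90 machines made up the rest. Dnajb1, an HSP40 protein that activates HSP70, stood at 11.11 and 10.99 untreated and at 13.25 and 13.08 with acLDL. Its groups did not overlap, and it rose 4.34-fold (log2 change 2.12, SE 0.28, limma adjusted p = 0.0402). In KI it stood at 11.57 and 12.62 untreated and at 12.89 and 12.87 with acLDL. Bag3, a nucleotide exchange factor that directs HSP70 clients to autophagy, was at 11.51 and 11.38, then at 12.70 and 12.54. It rose 2.25-fold (SE 0.13 on the log2 scale, limma adjusted p = 0.025), with both acLDL arrays above both untreated ones. Stip1, the adaptor that joins HSP70 to HSP90, was at 10.18 and 10.19, then at 11.45 and 11.57. It rose 2.51-fold (SE 0.18 on the log2 scale, limma adjusted p = 0.0403), and the arrays of each group lay within 0.2 of each other. Bag3, Dnajb1 and Stip1 each lost the call when any 1 wild type array was left out, at adjusted p between 0.115 and 0.237.

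Regulators of the HSP90 ATPase formed a second set. Ahsa2, a relative of the HSP90 activator Ahsa1, measured 6.55 and 6.50 untreated and 7.85 and 8.03 with acLDL. Both acLDL arrays were over 1 log2 unit above both untreated ones, a 2.66-fold rise (log2 change 1.41, SE 0.11, limma adjusted p = 0.00446). Chordc1, an HSP90 partner with zinc-binding CHORD domains, was at 10.47 and 10.48 untreated and at 12.01 and 11.85 with acLDL. It rose 2.74-fold (SE 0.12 on the log2 scale, limma adjusted p = 0.00455), with no overlap, and its call was lost without either untreated array or without acLDL array 1 (adjusted p up to 0.0877). Ahsa1 itself was at 9.37 and 9.61, then at 10.22 and 10.35, which did not pass (log2 change 0.80, SE 0.14, limma adjusted p = 0.106).

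Several members had large changes without passing. Hspb1, a small heat shock protein, was at 11.57 and 11.47 untreated and at 13.23 and 13.00 with acLDL. Its groups did not overlap (log2 change 1.59, SE 0.28, limma adjusted p = 0.0988). Its untreated KI arrays, which enter the shared spread, were at 11.89 and 12.87, and with only the 4 wild type arrays in the fit the limma adjusted p was 0.0121. Both probes of Hspd1, the mitochondrial chaperonin HSP60, were higher, with log2 changes of 1.19 and 0.84 and a limma adjusted p of 0.0863 for each. The lowest changes of the list were those of Cct5, a subunit of the cytosolic chaperonin, at -0.33, and Dnajb6, an HSP40 protein, at -0.23. Serpinh1, the collagen chaperone HSP47 of the endoplasmic reticulum, sits in the matrix list and was at 12.04 and 12.01, then at 12.66 and 12.93 (log2 change 0.77, SE 0.14, limma adjusted p = 0.114). The ranked plot of the list shows the members from Hsph1 to Cct2 above 0.3 and the next ones close to 0.

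**Figure D3:**
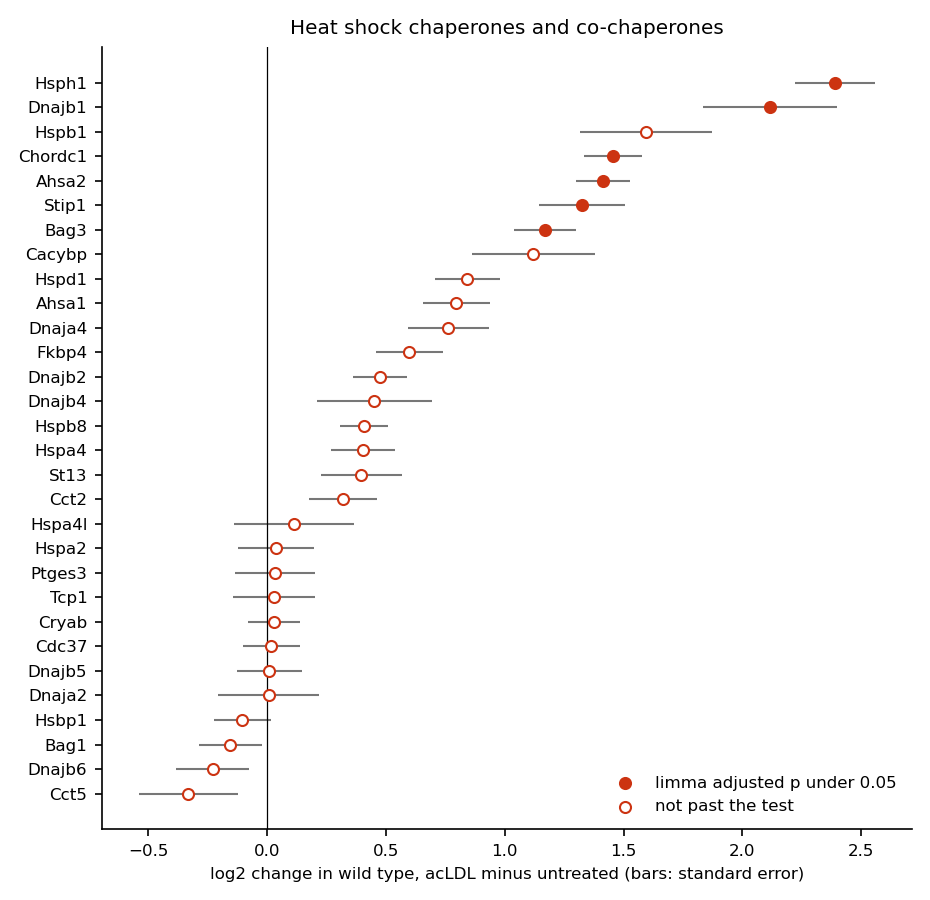
Log2 change with acLDL in wild type (horizontal axis) for the 30 tested members of the heat shock list, with bars for the standard error of the limma fit and filled points for the 6 past the test. The values run from 2.39 for Hsph1 to -0.33 for Cct5, and 26 of 30 points lie to the right of 0.

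The promoters of called genes were searched for the sites these programs use, and a window is printed for each of the 2 genes that held a full site, one of the heat shock and one of the cAMP list. HSF1 binds inverted repeats of GAA, written head to head as GAANNTTC or tail to tail as TTCNNGAA, and the factors CREB and CREM bind TGACGTCA. All 3 read the same on both strands, which were both searched in the 250 bases before each start that the RefSeq windows use. Such a start can lie inside the annotated gene. GAANNTTC and TTCNNGAA can overlap where repeats follow each other. Of the 15 genes past the test and higher, 13 were matched to a RefSeq window (GRCm38.p6). TTCNNGAA, searched after GAANNTTC had given no match, stood in 1 of the 13, that of Hsph1, beginning 33 bases before the start used for the printed window and 54 before a second start in the table. The same letters stood in 8.11% of all genes of the table and in 7.31% of those tested here. TGACGTCA stood in 1 of the 13, that of Dusp8, in 2 copies beginning 107 and 63 bases before the start, and in 1.77% of all genes and 2.84% of those tested. GAANNTTC stood in 0 of the 13, in 7.73% of all genes and in 6.19% of those tested, which says only that these letters are not in these windows. Among the 22 heat shock members with a window that were tested and not called, GAANNTTC stood in 6, among them Hspb1 and Hspd1. TTCNNGAA stood in 5 of these 22, among them Hspd1, Dnajb6 and Cct5. Capitals mark TTCNNGAA in the Hsph1 window (chr5:149636337-149636586, minus strand) and TGACGTCA in the Dusp8 window (chr7:142095285-142095534, minus strand), each 5′ to 3′ toward the start used. The Dusp8 window lies inside the annotated gene, whose upstream end is at 142095907. The Hsph1 window lies partly inside its gene, whose upstream end is at 149636498, and its marked site lies inside.
Hsph1: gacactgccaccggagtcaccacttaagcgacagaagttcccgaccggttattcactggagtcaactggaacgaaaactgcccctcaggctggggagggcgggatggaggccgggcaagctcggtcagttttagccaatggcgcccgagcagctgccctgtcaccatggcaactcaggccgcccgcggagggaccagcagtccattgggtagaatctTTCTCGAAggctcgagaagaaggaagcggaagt
Dusp8: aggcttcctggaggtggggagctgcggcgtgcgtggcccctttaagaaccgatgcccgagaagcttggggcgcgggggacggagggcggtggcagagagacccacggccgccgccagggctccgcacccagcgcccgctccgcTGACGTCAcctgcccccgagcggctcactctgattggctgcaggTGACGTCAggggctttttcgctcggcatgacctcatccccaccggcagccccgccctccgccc

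Genes induced by signalling made up the second group of rises. The list of immediate early and cAMP response genes had 27 tested members, 21 higher and 6 lower, at a median of 0.33. The acLDL arrays both lay above the untreated ones for 15 of them and below for 4, against 22% and 19.7% of all named genes. Past the test were 2 higher members and 0 lower ones, against 0.178% and 0.0356% of named genes. Crem, a cAMP-responsive transcription factor whose short forms act as repressors, was at 6.87 and 6.50 untreated and at 7.79 and 7.93 with acLDL. It rose 2.26-fold (SE 0.14 on the log2 scale, limma adjusted p = 0.025), with no overlap, from the 1 of its 4 probes that was above noise. Dusp8, a phosphatase of JNK and p38 kinases whose window is printed above, was at 8.14 and 8.10, then at 9.0 and 9.15. It rose 1.94-fold (SE 0.12 on the log2 scale, limma adjusted p = 0.0273), and both acLDL arrays lay above both untreated ones. Crem kept its call only without untreated array 1 among the fits that left out a wild type array, and Dusp8 in none of them, at adjusted p of at most 0.23 for both.

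Other members of the list were higher without passing. Klf4, a transcription factor induced by stress and shear, had 3 tested probes with log2 changes of 1.04, 0.89 and 0.80, the first with a limma adjusted p of 0.0564. Fosl2, a FOS-family subunit of AP-1, was at 9.56 and 9.30, then at 10.15 and 10.03 (log2 change 0.66, SE 0.13, limma adjusted p = 0.138). Ier3, an early gene of the NF-kB response, went the other way, from 12.95 and 13.09 to 12.22 and 12.37 (log2 change -0.73, SE 0.14, limma adjusted p = 0.133).

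Glucocorticoid-induced genes and clock genes were also mostly higher. By limma 0 of either list passed, where 0.178% of named genes passed as higher and 0.0356% as lower. Of 17 glucocorticoid-induced genes, 14 were higher at a median of 0.31, 10 with both acLDL arrays above both untreated ones (22% of all named genes) and 0 with both below (19.7%). At an unadjusted p under 0.05, 5 were higher and 0 lower, where 495 and 487 of the 8437 named genes were. Errfi1, a feedback inhibitor of EGF receptor signalling, was at 12.10 and 11.79 untreated and at 13.53 and 13.48 with acLDL. Its groups lay over 1 log2 unit apart, a 2.95-fold difference (limma adjusted p = 0.0988). Pdk4, which restrains pyruvate oxidation, was at 7.03 and 6.39, then at 7.67 and 7.87, and Klf15, a glucocorticoid-induced factor of fasting metabolism, at 7.98 and 7.61, then at 8.62 and 8.72. Neither passed (limma adjusted p = 0.28 and 0.0863), and the acLDL arrays of both lay above their untreated arrays. All 11 tested clock genes were higher, at a median of 0.34 (0.21 without the first untreated array). The groups did not overlap for 5 of the 11, against 22% of all named genes, and 4 were higher and 0 lower at an unadjusted p under 0.05. Per1, a clock repressor that both lists hold, was at 7.93 and 7.41, then at 8.56 and 8.94 (log2 change 1.08, SE 0.21, limma adjusted p = 0.134). In KI, Cry2, a partner of the PER proteins, had a log2 change of -0.55 beside 0.38 in wild type, a difference that did not pass (limma adjusted p = 0.316).

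The remaining rises belong to varied pathways. Npr3, the natriuretic peptide clearance receptor, was at 7.56 and 7.48 untreated and at 8.67 and 8.91 with acLDL. It rose 2.42-fold (log2 change 1.28, SE 0.12, limma adjusted p = 0.00884), with over 1 log2 unit between the groups, and in KI it was at 8.15 and 8.06, then at 8.80 and 8.88. P4ha1, the catalytic subunit of collagen prolyl 4-hydroxylase, was at 8.48 and 8.26, then at 10.04 and 9.80. It rose 2.93-fold (SE 0.19 on the log2 scale, limma adjusted p = 0.025), with no overlap. Its paralogue P4ha2 was at 8.81 and 8.85, then at 9.40 and 9.39, which did not pass (log2 change 0.56, SE 0.10, limma adjusted p = 0.116). P4ha1 was the 1 member past the test among 23 tested hypoxia genes, whose median was 0.03, with 12 higher and 11 lower, and between -0.05 and 0.08 with 1 wild type array left out. It was also the 1 member past the test among 32 tested matrix genes, whose median was 0.13, and -0.01 without the first untreated array. Of all named genes, 0.178% passed as higher and 0.0356% as lower.

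Gfpt2, which makes the first precursor of the hexosamine pathway, was at 7.16 and 7.25 untreated and at 8.10 and 8.05 with acLDL. It rose 1.83-fold (SE 0.10 on the log2 scale, limma adjusted p = 0.025), with no overlap, while 8 of the 11 tested hexosamine and glycosylation genes were lower, at a median of -0.10. Naa16, an auxiliary subunit of an N-terminal acetyltransferase, was at 6.94 and 6.92, then at 7.66 and 7.76, and rose 1.71-fold (limma adjusted p = 0.0403) from 1 of its 2 probes. Mpp3, a membrane scaffold protein, was at 6.94 and 6.42, then at 8.22 and 7.82, and rose 2.53-fold (limma adjusted p = 0.0477). Its second tested probe had a log2 change of 0.42 (limma adjusted p = 0.238), so the probes disagreed on the call. Phlda2, a small pleckstrin homology protein from an imprinted gene, was at 6.50 and 6.57, then at 7.59 and 7.32, and rose 1.89-fold (limma adjusted p = 0.0477). Of these 6 genes, only Npr3 kept its call in a fit that left out a wild type array, the one without acLDL array 1, and the others had adjusted p between 0.0572 and 0.239 in such fits. Each of the 15 rises is shown by array in the plot of called probes.

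**Figure D4:**
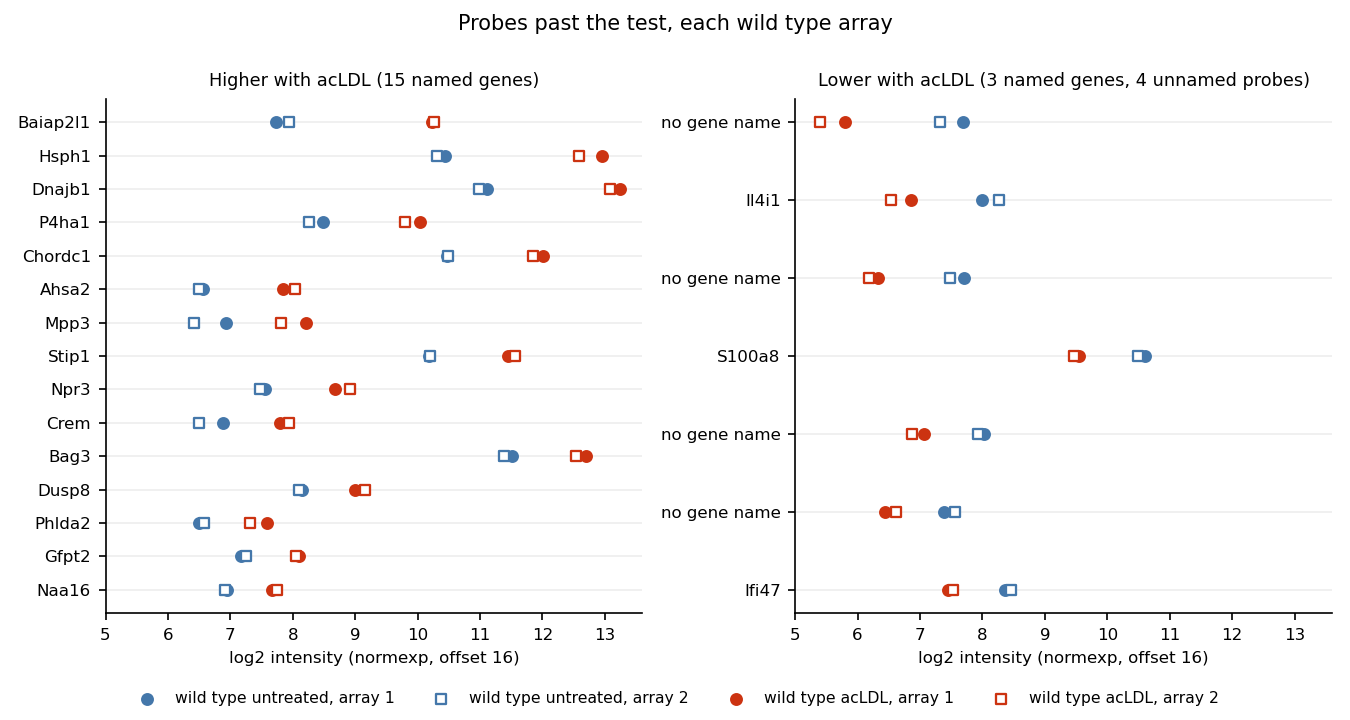
Log2 intensity (horizontal axis) of the 22 probes past the limma test, 15 higher with acLDL on the left and 7 lower on the right, 1 point per wild type array and no error bars. In every line the 2 acLDL points (red) lie on 1 side of the 2 untreated points (blue), with the widest gaps for Baiap2l1, Hsph1 and Dnajb1.

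S100a8, a calcium-binding subunit of calprotectin and a marker of neutrophils, had the smallest p among the named falls. Its log2 intensity was 10.60 and 10.49 untreated and 9.55 and 9.47 with acLDL. Both acLDL arrays lay below both untreated ones, and in log2 units it fell by 1.04 (SE 0.12, limma adjusted p = 0.025). In KI it was at 10.71 and 10.57 untreated and at 11.39 and 11.63 with acLDL, the opposite order. The difference of effects was 1.90 (SE 0.18, limma adjusted p = 0.0199). Its partner S100a9 was at 9.65 and 9.77, then at 9.10 and 9.17, which did not pass (log2 change -0.58, SE 0.15, limma adjusted p = 0.213). The S100a8 fall lost its call without any 1 wild type array, at adjusted p between 0.113 and 0.176. In these bulk samples fewer cells of a type and less RNA per cell cannot be told apart. Of 11 tested neutrophil and progenitor markers, 8 were lower at a median of -0.48, 5 of them with no overlap and 1 higher with no overlap, against 19.7% and 22% of all named genes. Their summed intensity was 32210 and 36478 untreated and 33665 and 31140 with acLDL, so the groups overlapped, and Ngp was above noise on no wild type array. The part of cell makeup in this fall was not tested.

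Ifi47, an interferon-induced GTPase, was at 8.35 and 8.45 untreated and at 7.45 and 7.52 with acLDL. The groups did not overlap, and it fell by 0.92 (SE 0.13, limma adjusted p = 0.0403), a call lost without any 1 of the 8 arrays (adjusted p up to 0.243). It was the 1 member past the test among 19 interferon-stimulated genes, where 0.0356% of all named genes passed as lower and 0.178% as higher. Of the 19, 9 were higher and 10 lower at a median of -0.06, or -0.17 and -0.13 without acLDL arrays 1 and 2. The groups did not overlap for 8 lower members and 1 higher one, against 19.7% and 22% of all named genes. At an unadjusted p under 0.05, 4 were lower and 0 higher, where 487 and 495 of the 8437 named genes were. Ifit3, an antiviral effector, was at 8.27 and 7.94, then at 7.47 and 7.68 (log2 change -0.53, SE 0.14, limma adjusted p = 0.215). Il4i1, a secreted oxidase of aromatic amino acids made by myeloid and B cells, was at 8.0 and 8.27, then at 6.86 and 6.54. It fell by 1.43 (SE 0.20, limma adjusted p = 0.0479), with both acLDL arrays over 1 log2 unit below both untreated ones, and lost the call without any 1 wild type array (adjusted p between 0.121 and 0.289). Of the 4 unnamed probes that were lower, 2 were not above noise on either acLDL array, so the untreated signal was at least 2.24-fold and at least 2.39-fold higher, computed against the lowest signal above noise.

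Leukocyte genes were mostly lower, with S100a8 the 1 member past the test on the 4 lists of neutrophil, macrophage, lymphocyte and MHC class II genes. Among all named genes 0.0356% passed as lower and 0.178% as higher, so lists of this size would hold few calls. Of 18 lymphocyte and NK cell markers, 15 were lower at a median of -0.36, 10 with no overlap and 0 higher with no overlap, against 19.7% and 22% of all named genes. Cd3g, a chain of the T cell receptor complex, was at 8.30 and 8.27 untreated and at 7.46 and 7.48 with acLDL. Its groups did not overlap (log2 change -0.81, SE 0.18, limma adjusted p = 0.173). Cd8b1, a coreceptor chain of cytotoxic T cells, was at 8.92 and 8.99, then at 8.39 and 8.12 (log2 change -0.70, SE 0.14, limma adjusted p = 0.141). Summed intensity over the 18 markers was 5243 and 5597 untreated and 3776 and 4094 with acLDL, so both acLDL arrays were lower. Of 15 MHC class II and dendritic cell genes, 12 were lower at a median of -0.28, 11 with no overlap (19.7% of all named genes) and 1 higher with no overlap (22%). H2-Ab1, a class II beta chain, was at 11.07 and 11.17, then at 10.67 and 10.43 (log2 change -0.57, SE 0.15, limma adjusted p = 0.213). H2-Oa, a modulator of class II peptide loading, was at 6.98 and 7.37, then at 6.38 and 6.62, with no overlap (limma adjusted p = 0.182).

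Macrophage identity genes showed the same direction, with 15 of 19 lower at a median of -0.22. The groups did not overlap for 9 lower members and 1 higher one, against 19.7% and 22% of all named genes. Their summed intensity was 50423 and 49427 untreated and 47799 and 41467 with acLDL, the lowest on the second acLDL array. Tyrobp, the signalling adaptor DAP12, was at 8.01 and 7.70, then at 7.33 and 7.03 (log2 change -0.68, SE 0.17, limma adjusted p = 0.213). Coro1a, an actin regulator of leukocytes, was at 8.69 and 8.79, then at 7.90 and 7.95, with no overlap (log2 change -0.82, SE 0.12, limma adjusted p = 0.0564). Ly86, the MD-1 subunit of the RP105 receptor, Evi2a, Myo1g, a myosin of blood cells, and Cd53, a leukocyte tetraspanin, had log2 changes of -0.90, -0.73, -0.63 and -0.78, with no overlap and limma adjusted p between 0.0863 and 0.118. Leaving out the second acLDL array moved the macrophage median to -0.13, the neutrophil median to -0.27, the lymphocyte median to -0.32 and the class II median to -0.30. Without the second untreated array the neutrophil median was -0.16. The part of cell makeup in these shifts was not tested.

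Genes of innate signalling were lower in part. Of 17 cytokines and chemokines, 13 were lower at a median of -0.41, 10 with no overlap and 1 higher with no overlap, against 19.7% and 22% of all named genes. Over the processing alternatives this median lay between -0.70 and -0.31. Their summed intensity was 22354 and 27991 untreated and 23970 and 25897 with acLDL, so the groups overlapped. By limma 0 of the 17 passed, where 0.0356% of named genes passed as lower and 0.178% as higher. At an unadjusted p under 0.05, 8 were lower and 0 higher, where 487 and 495 of the 8437 named genes were. Cxcl13, a B cell chemokine, was at 8.0 and 7.71 untreated and at 7.26 and 6.76 with acLDL (log2 change -0.84, SE 0.22, limma adjusted p = 0.213). Il12a, a subunit of interleukin 12, was at 7.33 and 7.19, then at 6.48 and 6.83 (log2 change -0.60, SE 0.16, limma adjusted p = 0.213). The 30 Toll-like receptor, interleukin 1 receptor and NF-kB genes had a median of -0.04, with 14 higher and 16 lower. Tlr2, a receptor for bacterial lipopeptides, was at 9.35 and 9.14, then at 8.59 and 8.61, with no overlap (log2 change -0.64, SE 0.13, limma adjusted p = 0.146). Ly96, the MD-2 partner of TLR4, was at 7.17 on both untreated arrays and at 6.68 and 6.27 with acLDL (limma adjusted p = 0.185).

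Lists tied to lipid uptake held no member past the test by limma, where 0.178% of named genes passed as higher and 0.0356% as lower. Of 8 tested LXR targets, 6 were lower at a median of -0.12, which was -0.01 without the first untreated array and -0.20 without the first acLDL array. On this list 2 members were lower and 0 higher with no overlap, against 19.7% and 22% of all named genes. At an unadjusted p under 0.05, 0 passed, where 495 of the 8437 named genes were higher and 487 lower. Abcg1, a cholesterol exporter, was at 12.09 and 11.62 untreated and at 11.66 and 11.53 with acLDL, so the groups overlapped, and the probe of Abca1 was not above noise on any wild type array. Cholesterol synthesis and uptake genes had a median of -0.04, with 6 higher and 11 lower, 1 of the 17 at an unadjusted p under 0.05. This median was 0.04 without the first acLDL array, 0.01 without the second untreated array and -0.14 without the second acLDL array. Idi1, an isomerase of the sterol pathway, was that one, at 6.09 and 6.14, then at 6.34 and 6.67 (limma adjusted p = 0.299), and since neither untreated array was above noise it was at least 1.13-fold higher with acLDL. The 19 members of the scavenger receptor and lipid storage list had a median of 0.10, 12 higher and 7 lower, with 1 in each direction at an unadjusted p under 0.05, and without the second acLDL array the median was -0.0009. Fabp5, a fatty acid binding protein, was at 7.83 and 7.49, then at 6.96 and 7.12 (log2 change -0.61, SE 0.22, limma adjusted p = 0.344), while Dgat2, which makes triglyceride, was at 7.88 and 7.99, then at 8.13 and 9.39. Dgat2 was high on the second acLDL array, as were the fat genes Adipoq and Car3. The median of the 18 adipocyte genes was 0.25, and -0.07 without that array.

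Lists of lysosomal, respiratory chain and ribosomal genes had medians near 0, with most members lower. The median was -0.08 for lysosomal genes (25 of 31 lower) and -0.09 for respiratory chain genes (26 of 34 lower). It was -0.08 for cytosolic ribosomal protein genes (19 of 25 lower), and between -0.14 and -0.12 without any 1 wild type array. In that order, 12, 9 and 12 members were lower with no overlap, against 19.7% of all named genes. Higher with no overlap were 1, 0 and 0, against 22%. By limma 0 members passed, where 0.178% of named genes passed as higher and 0.0356% as lower. Lower at an unadjusted p under 0.05 were 4, 2 and 3, where 487 of the 8437 named genes were. The respiratory chain median was 0.01 without the first acLDL array. Ctss, a cathepsin of antigen-presenting cells, had the lowest lysosomal value, at 8.56 and 8.44 untreated and at 7.76 and 7.71 with acLDL (log2 change -0.76, SE 0.19, limma adjusted p = 0.209). In the unfolded protein and ATF4 response, 20 of 25 genes were higher, at a median of 0.10. Herpud1, a factor of endoplasmic reticulum degradation, was at 9.35 and 9.19, then at 9.92 and 10.12 (log2 change 0.75, SE 0.14, limma adjusted p = 0.108), and Ddit3, a transcription factor of that stress, at 8.30 and 8.53, then at 9.28 and 9.02 (limma adjusted p = 0.144). Among NRF2 antioxidant genes, 11 of 15 were lower, at a median of -0.08. Hmox1, which degrades heme, was at 9.02 and 9.0, then at 8.42 and 8.23 (log2 change -0.69, SE 0.23, limma adjusted p = 0.299).

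No member of the lists of lung cell types passed the test by limma (0 on each list). Of all named genes, 0.178% passed as higher and 0.0356% as lower, so lists of this size would hold few calls. At an unadjusted p under 0.05 the airway list had 3 lower members and 0 higher ones, and the endothelial list 1 and 2. Of the 8437 named genes, 487 were lower and 495 higher at that p. Of 19 airway club and secretory genes, 16 were lower at a median of -0.21 (-0.18 without the second acLDL array and -0.32 without the first), 10 with no overlap, against 19.7% of all named genes. Scgb1a1 was at 15.06 on both untreated arrays and at 14.87 and 14.89 with acLDL (limma adjusted p = 0.537), while Lypd2 was at 12.53 and 12.57, then at 12.15 and 10.76. Of 26 endothelial genes, 21 were higher at a median of 0.12, which was 0.01 without the second acLDL array. Sox18, an endothelial transcription factor, went the other way, from 11.20 and 11.41 to 10.60 and 10.85 (log2 change -0.58, SE 0.16, limma adjusted p = 0.225). Alveolar type II and type I genes had medians of -0.01 and 0.02. The list of muscle genes had a median of 0.16, which was 1.08 without the first acLDL array and -0.44 without the second, and Tnni2 of fast muscle was at 11.20 on the first untreated array and at 7.41, 6.97 and 6.96 on the other 3. The plot of list medians gives all 35 lists.

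**Figure D5:**
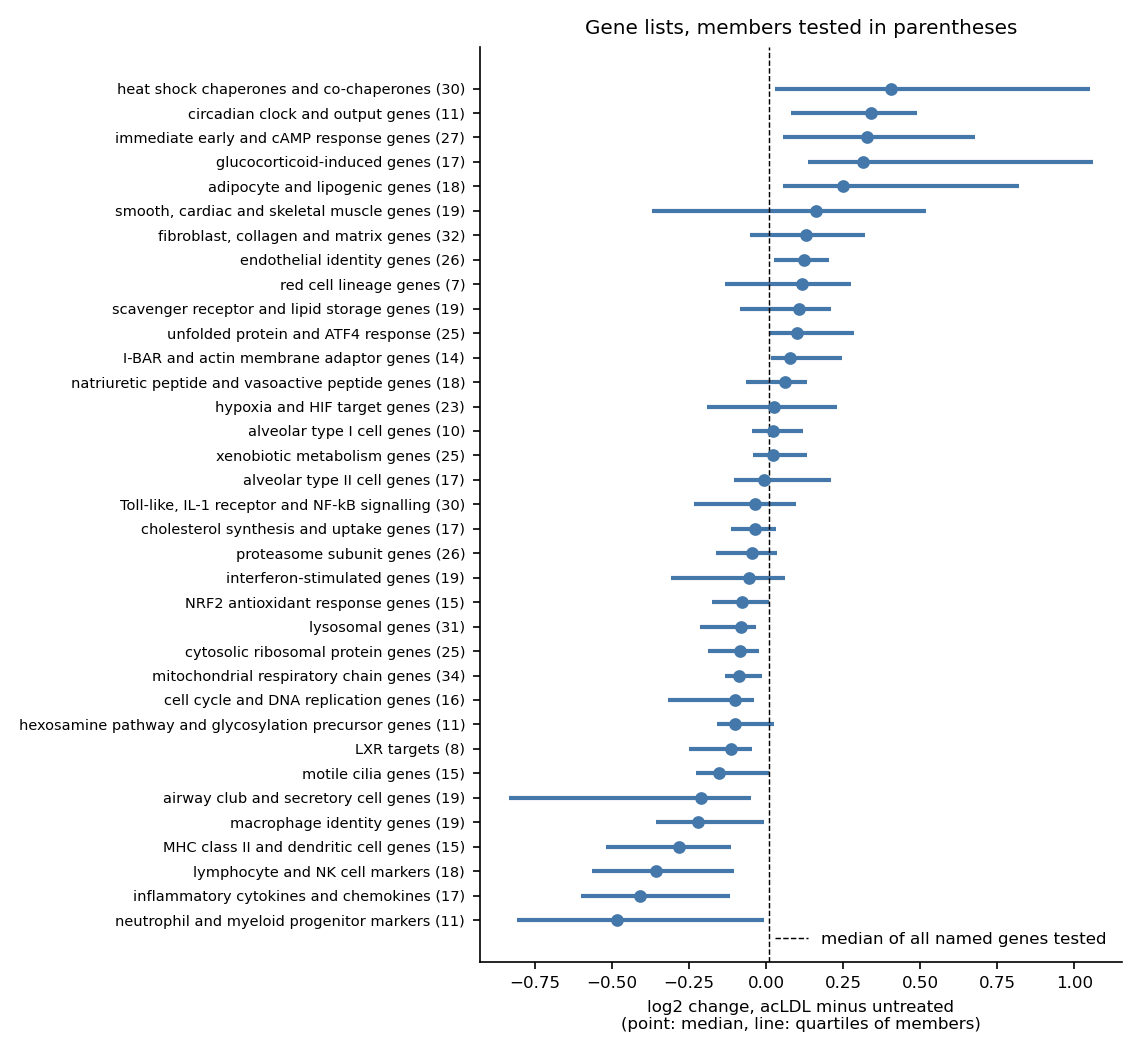
Median log2 change with acLDL in wild type (points, horizontal axis) and the quartiles of the members (lines) for 35 gene lists, with the number of tested members in parentheses and the median of all named genes as a dashed line. The heat shock, clock, immediate early and glucocorticoid lists lie above 0.3, and the neutrophil, cytokine and lymphocyte lists lie below -0.3.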

How the data were processed

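RNA of 8 samples was measured on Illumina bead arrays, 1 array a sample, and the values of 24613 probes were used. Per the submitters' processing notes the authors used BeadStudio, with no version stated there. The deposited table holds intensity on a linear scale, with about 29.2% of values below 0 and near-equal distributions on all arrays, as quantile normalization leaves them. The 16 columns of a second table could not be matched to a sample and were not used.

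From these values, noise was estimated from the values below 0 (12.2 units), and a signal over 3 times the noise (36.7) was called above noise. Background was corrected by normexp with an offset of 16, and log2 values were fitted with limma 3.58.1 in R 4.3.3, as 4 group means over 8 arrays, with 4 residual degrees of freedom before moderation. P-values were adjusted by Benjamini-Hochberg over the 11262 probes, at a threshold of 0.05. Where both arrays of a group were within noise, only a bound is given ("at least"). Probe names came from a platform annotation joined by probe ID, since the chip named in the labels differs from it: 20984 probes had 1 symbol, 1 had several and 3628 had none. A gene in a list was represented by its brightest tested probe, and 35 lists were used. The text names the called genes, the next 15 genes in each direction by p in part, and list members with the smallest p. Abcg1, Cct2, Cct5, Dnajb6, Fosl2, H2-Ab1, Ier3, Lypd2, Pdk4, Tnni2, Txnl1 and the genes that separate the acLDL arrays fall outside this rule and were picked with their values in view. The members and lists were chosen with earlier results of these data known.

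Alternatives covered background, normalization, filters, 1 probe a gene, an intensity trend, only the wild type arrays, a replicate block and leaving out each array. The labels do not say that a replicate number marks anything shared. Same-numbered arrays of treated and untreated groups deviated with a correlation of -0.166 in wild type and 0.166 in KI, and those of the 2 acLDL groups with 0.295. The numbers were therefore not taken as pairs. The code was tested on simulated data. Plots used matplotlib 3.10.9.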

Additional observations from a re-analysis of the deposited data

Results flagged for a closer look

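For 3 named genes the acLDL effect differed between KI and wild type by the test of the difference itself in limma. Baiap2l1 rose in wild type, and the difference of its effects, KI minus wild type, was -2.59 in log2 units (SE 0.16, limma adjusted p = 0.00204). This difference passed without any 1 of the 8 arrays, at adjusted p of at most 0.0282. S100a8 fell in wild type and was higher with acLDL in KI, with a difference of 1.90 (SE 0.18, limma adjusted p = 0.0199), which passed only without the first acLDL KI array among the 8 fits with 1 array left out. Col3a1, a fibrillar collagen chain, was at 7.93 and 7.72 untreated and at 7.18 and 7.16 with acLDL in wild type, and at 7.71 and 7.70, then at 8.53 and 8.55 in KI. Its difference was 1.48 (SE 0.16, limma adjusted p = 0.0357), and it passed in none of those 8 fits (adjusted p 0.0681 to 0.249).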

How the results depend on the processing

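Of the 22 probes past the test, the count was 23 with an offset of 50, 22 with median scaling, 20 with cyclic loess and 26 with an intensity trend. It was 5 with no background correction, 6 with no filter and 16 with only the wild type arrays, and ranged from 1 to 36 when 1 array was left out. Baiap2l1, Hsph1, Ahsa2, Chordc1 and Npr3 were the 5 left with no background correction, and they passed with no filter too. Called members of the lists numbered 14, and 5, 5 and 11 under the same 3 settings, with a range of 1 to 20 over left-out arrays. Named genes with a different acLDL effect in KI numbered 3, then 4 with an offset of 50, with the filter on all 4 wild type arrays or with an intensity trend, 1 with no background correction and 1 with no filter, with a range of 1 to 2 over left-out arrays. With the replicate block the counts were 20, 13 and 1, with 17 of the 22 shared; Dnajb1 (limma adjusted p = 0.0627), Naa16 (0.0718), Phlda2 (0.0912), Il4i1 (0.0573) and 1 unnamed probe no longer passed. With the crossed replicate block, chosen after seeing the data, they were 8, 8 and 1. Of 1069 single-probe values under alternatives, 842 kept their side of the threshold, 196 lost it, 31 gained it and 0 changed direction. The causes were not tested. The number of arrays and, for dim probes, the signal over background limit the precision.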
